A study of Mus musculus with 16 samples.

Results

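The collagen genes were described on 16 mouse gene arrays. Members were all genes whose symbol is Col, a number, the letter a and a number, and each was represented by the probe set with the highest mean over the 16 arrays among those with exactly 1 gene symbol. This gave 44 genes of 19938 measured. They comprise 11 fibrillar collagens, 6 collagens of the type IV network of basement membranes, and 27 others. The treated group was 5 biological replicates of neurons derived from induced pluripotent stem cells (iPSCs), cultured with 2 recombinant human proteins, the Wnt ligand WNT1 and the Dickkopf family member DKK3. The control group was 5 biological replicates of the same kind of iPSC-derived neurons without these proteins. The primary groups were midbrain dopaminergic (mdDA) neurons from the ventral midbrain at embryonic day E14.5 and at E13.5, with 3 arrays each that the labels call technical replicates, so that each stage is 1 sample. All groups, controls included, had the genotype Pitx3GFP/+, in which 1 allele of the transcription factor gene Pitx3 carries green fluorescent protein (GFP), on a mixed C57BL/6 x 129/Ola background. Per the design text all cells were sorted for GFP, while the labels mention sorting for the primary cells alone. Whether the iPSC-derived replicates came from separate cultures or from 1 iPSC line is not given in the sources used here. P-values therefore measure the spread between these samples, which may be technical in part.

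Collagens are secreted or membrane proteins of 3 alpha chains wound into a triple helix, built from repeats of glycine followed by other residues, often proline. Fibrillar collagens of types I, III and V form the fibres of connective tissue and are made mainly by fibroblasts and related mesenchymal cells, type IV collagens form the sheet-like network of basement membranes, and other types coat fibrils, form beaded filaments or span the cell membrane. In the developing brain, collagens lie largely in the meninges and around blood vessels, and neurons make few of them.

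Levels are log2 values after RMA normalization, as deposited, so that a step of 1 is a 2-fold difference of signal. Array medians over all 35556 probe sets lay between 5.85 and 6.02, and dim signal is set against these medians below. The labelled cell type held for the primary arrays: Th, which encodes the rate-limiting enzyme of dopamine synthesis, was at 10.52 to 11.53 there and the mean over 8 dopaminergic markers lay between 9.62 and 10.01. On iPSC-derived arrays that mean was 5.65 to 8.01 in treated and 5.80 to 7.61 in control cells, and the highest value of either group was on its array 5, where Th was at 9.22 and 8.52 against at most 6.17 on the other iPSC-derived arrays. On those 8 arrays this defining marker of the labelled cell type was thus not far above the array medians. Counts of collagens and pluripotency markers, and list counts that moved, are therefore also given without both arrays 5. In sorted bulk samples, fewer cells of a type and less RNA per cell cannot be told apart. Levels of different probe sets were not set against each other, since probes differ in brightness, and the number of arrays limits the precision.

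Promoter windows were available from RefSeq (build GRCm38.p6) for 35 of the 44 genes, in 38 windows that reach from 250 bases before to 50 after a transcript's start. The genes without a window were Col1a1, Col2a1, Col4a3, Col5a2, Col9a3, Col12a1, Col14a1, Col22a1 and Col26a1. The windows of Col4a1 (chr8:11312777-11313076, minus strand) and Col4a2 (chr8:11312555-11312854, plus strand) are shown because these 2 genes face away from each other and share 78 bases, and because their levels moved together over the arrays. Capitals mark the shared bases (chr8:11312777-11312854), which each window gives on its own strand.
Col4a1: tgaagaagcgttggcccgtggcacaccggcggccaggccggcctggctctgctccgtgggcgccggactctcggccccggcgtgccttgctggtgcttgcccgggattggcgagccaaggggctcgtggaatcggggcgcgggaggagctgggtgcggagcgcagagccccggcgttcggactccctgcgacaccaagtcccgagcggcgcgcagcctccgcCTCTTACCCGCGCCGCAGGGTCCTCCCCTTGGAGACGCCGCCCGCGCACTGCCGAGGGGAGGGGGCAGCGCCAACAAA
Col4a2: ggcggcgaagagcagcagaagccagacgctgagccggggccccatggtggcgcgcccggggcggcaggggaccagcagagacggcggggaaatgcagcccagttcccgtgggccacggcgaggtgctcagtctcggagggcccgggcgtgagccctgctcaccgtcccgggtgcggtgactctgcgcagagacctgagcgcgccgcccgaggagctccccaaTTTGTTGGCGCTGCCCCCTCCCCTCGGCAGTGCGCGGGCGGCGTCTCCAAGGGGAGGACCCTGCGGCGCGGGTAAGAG
The windows of Col1a2 (chr6:4505368-4505667, plus strand) and Col3a1 (chr1:45311288-45311587, plus strand) are shown because both genes were among the fibrillar collagens with the largest differences while their promoters differ in base composition. Capitals mark CCAAT on either strand, the letters that the factor NF-Y is known to bind.
Col1a2: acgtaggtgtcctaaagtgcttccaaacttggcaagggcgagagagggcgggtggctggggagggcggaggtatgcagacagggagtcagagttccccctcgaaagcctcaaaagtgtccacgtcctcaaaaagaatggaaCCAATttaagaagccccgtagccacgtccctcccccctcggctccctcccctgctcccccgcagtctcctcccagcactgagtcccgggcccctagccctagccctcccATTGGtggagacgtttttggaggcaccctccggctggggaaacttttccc
Col3a1: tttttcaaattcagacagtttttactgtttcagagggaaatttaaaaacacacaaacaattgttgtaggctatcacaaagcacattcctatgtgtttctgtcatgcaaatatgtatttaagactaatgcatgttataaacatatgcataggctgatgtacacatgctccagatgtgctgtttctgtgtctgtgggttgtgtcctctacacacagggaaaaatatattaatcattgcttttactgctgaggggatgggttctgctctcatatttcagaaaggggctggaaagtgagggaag
The Col4a1 and Col4a2 windows held 74.0% and 73.7% G or C with 37 and 33 CG steps. Col1a2 held 61.0% G or C, 13 CG steps and 2 matches to CCAAT. Col3a1 held 37.7% G or C, 0 CG steps and 0 matches. The median over all 32851 windows was 52.7% G or C and 7 CG steps, and the median over the 38 collagen windows was 59.8% G or C. These 4 genes were all higher in iPSC-derived cells, and their windows ranged from poor to rich in CG. Over the 38 collagen windows, CCAAT or its complement ATTGG was present in 13 (34.2%, against 37.4% of all windows), GGGCGG or CCGCCC, the letters of a GC box, in 23 (60.5% against 35.7%), and TATAAA or TTTATA in 5 (13.2% against 13.6%). GGGCGG was in 11 of the 16 windows of genes higher in control iPSC-derived cells than in primary neurons and in 12 of the 22 windows of the remaining genes. A match is a description of letters and shows no binding, and the shares were not adjusted for base composition.

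**Figure D1:**
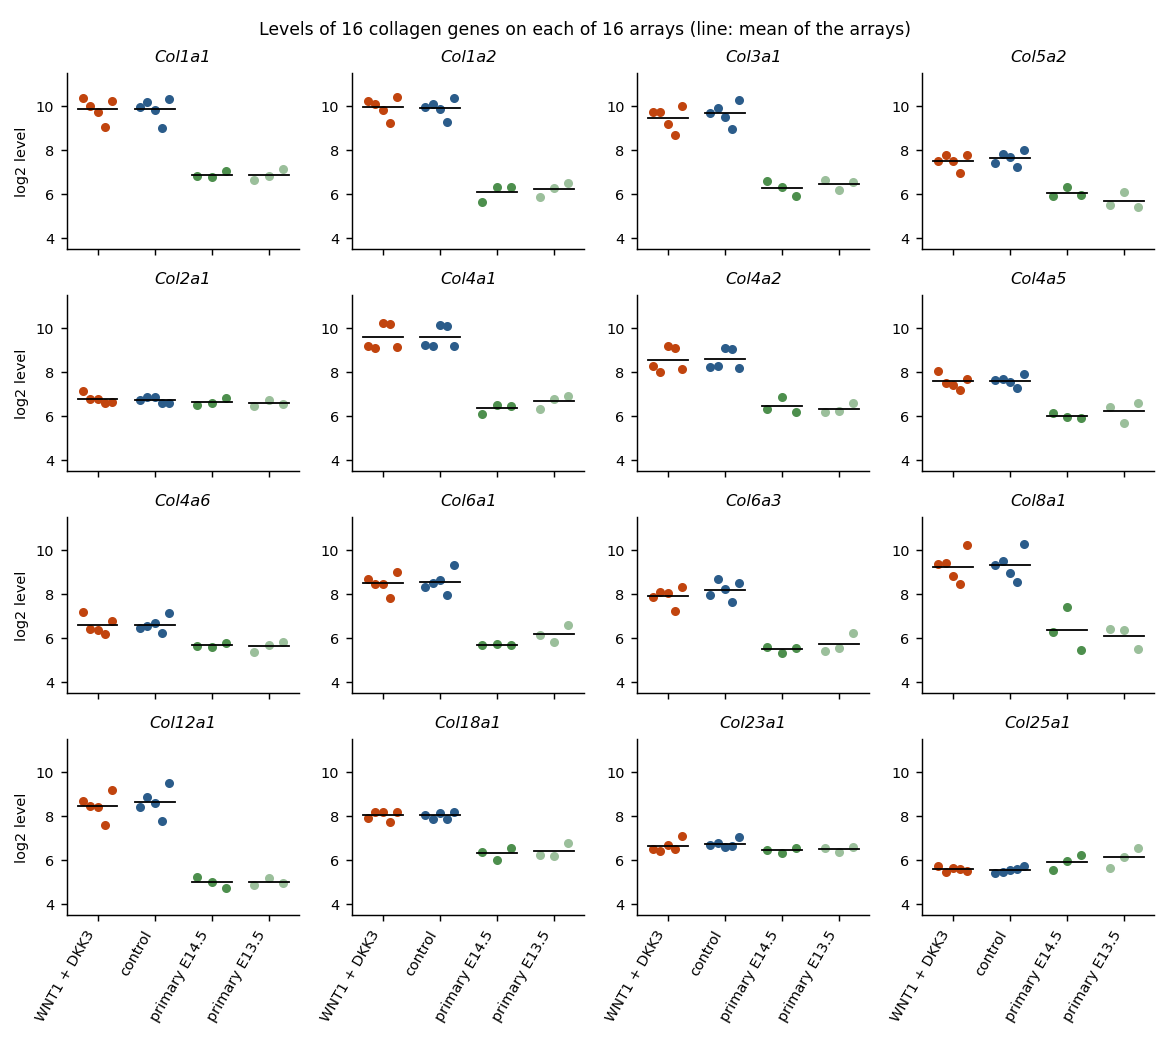
Log2 levels of 16 collagen genes on each array (y axis), by group (x axis): cells treated with WNT1 and DKK3, control cells, primary neurons at E14.5 and at E13.5; points are arrays in order of their number and lines are means. Col1a1, Col1a2, Col3a1, Col4a1 and Col12a1 stood above all primary arrays on all 10 iPSC-derived arrays, while Col2a1 and Col23a1 lay at similar levels in all groups.

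The comparison of iPSC-derived cells with primary neurons asked how far the cultured cells match the neurons they are named after. Of the 44 collagens, 18 were higher and 1 lower in treated cells, and 19 were higher and 1 lower in control cells, each against primary neurons (limma, adjusted p under 0.05 over all genes). In these comparisons 19.9% of all genes were higher and 21.3% lower in treated cells, and 19.3% were higher and 22.5% lower in control cells. By at least 2-fold, 14 collagens were higher in treated and 13 in control cells, against 10.6% of all genes in either comparison. Both comparisons share the same 2 primary samples, and 17 collagens were higher in both. For 17 of 44 genes every iPSC-derived array lay above every primary array (14.1% of all genes), and for 0 every array lay below (12.7% of all genes). The median difference over the 44 was 0.23 in treated and 0.25 in control cells, against -0.09 and -0.11 over all genes. Without the arrays numbered 5, 19 were higher and 1 lower in both comparisons. Centring each array on its median over the 19938 genes added -0.21 to every difference of treated and -0.19 to every difference of control cells. The counts were then 15 higher and 6 lower for treated and 17 higher and 7 lower for control cells, and over all genes 3059 higher and 8787 lower, and 3046 higher and 8833 lower, in place of 3960 and 4241, and 3855 and 4491. Collagens with a difference over 1 kept their call with this centring, and the 6 and 7 lower ones include genes whose difference was near 0 without it.

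**Figure D2:**
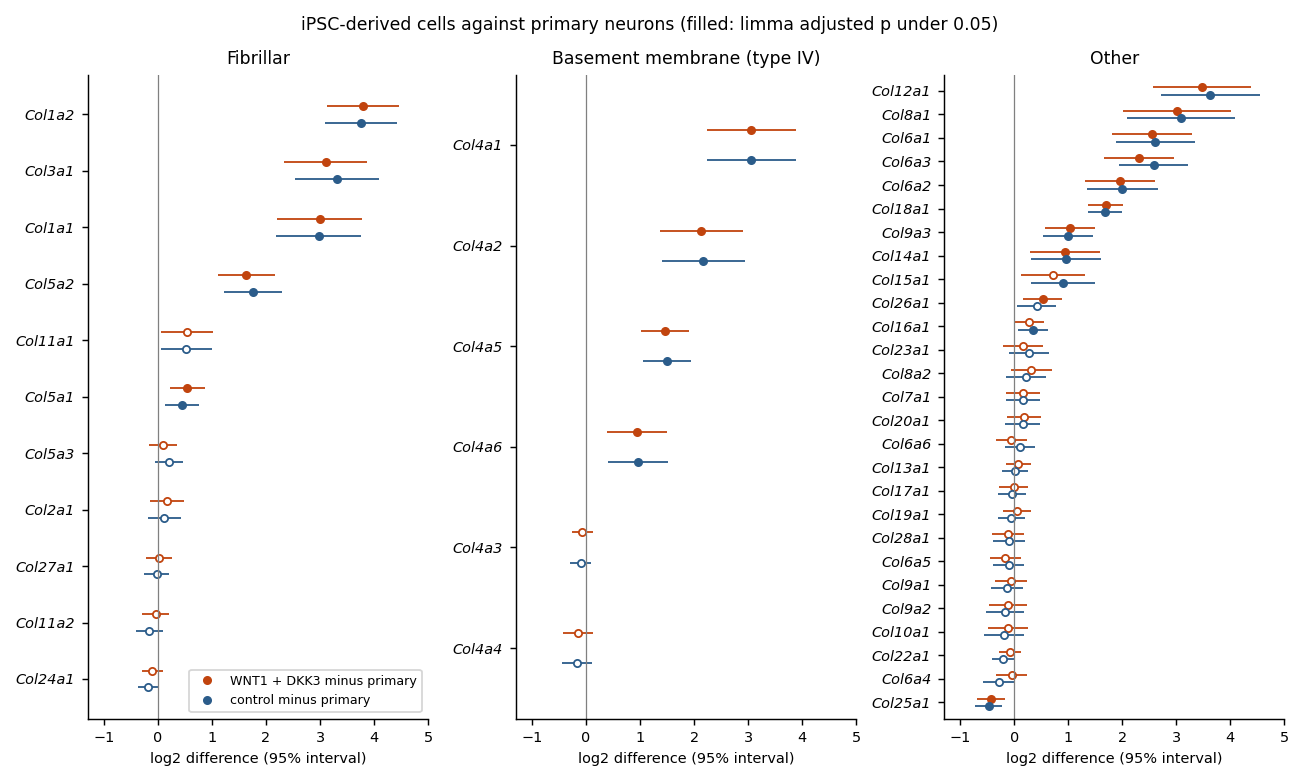
Log2 difference from the mean of the 2 primary samples (x axis, with 95% interval) for each collagen gene (y axis), in treated (red) and control (blue) iPSC-derived cells, in 3 panels for fibrillar, basement membrane and other collagens; filled points passed limma's adjusted threshold of 0.05 and open points did not. The points farthest to the right are Col1a2, Col3a1 and Col1a1 among fibrillar collagens, Col4a1 and Col4a2 among type IV collagens, and Col12a1, Col8a1, Col6a1 and Col6a3 among the others, and Col25a1 was the 1 gene below 0 that passed.

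Among the 11 fibrillar collagens, both chains of type I, the chain of type III and 2 of the 3 type V chains were higher in iPSC-derived cells. Col1a2, the alpha-2 chain of type I collagen, the main collagen of skin, bone and tendon, had log2 levels of 10.25, 10.11, 9.83, 9.26 and 10.44 on treated arrays 1 to 5, 9.96, 10.12, 9.89, 9.29 and 10.39 on control arrays 1 to 5, 5.66, 6.36 and 6.34 on E14.5 and 5.90, 6.29 and 6.52 on E13.5 arrays. All 10 iPSC-derived arrays stood above every primary array. The difference was 3.80 (SE 0.31, limma adjusted p = 1.41e-06) in treated and 3.75 (SE 0.31, limma adjusted p = 1.48e-06) in control cells, which is 13.9-fold in treated cells. Col1a1, which encodes the alpha-1 chain of the same protein, was at 10.36, 10.001, 9.76, 9.05 and 10.24 on the 5 treated arrays, 9.97, 10.18, 9.84, 8.997 and 10.32 on the 5 control arrays, 6.84, 6.79 and 7.07 on E14.5 arrays and 6.63, 6.82 and 7.16 on E13.5 arrays. The lowest value of each iPSC-derived group was on its array 4, and no array reached the primary range. It differed by 3.00 (SE 0.36, limma adjusted p = 3.53e-05) in treated and 2.98 (SE 0.36, limma adjusted p = 3.64e-05) in control cells. Col3a1, the chain of type III collagen of vessels, skin and meninges, measured 9.74, 9.74, 9.17, 8.70 and 10.03 in treated cells, 9.70, 9.94, 9.53, 8.98 and 10.27 in control cells, 6.59, 6.34 and 5.92 at E14.5 and 6.66, 6.20 and 6.54 at E13.5, array by array. Here too array 4 was lowest and array 5 highest in both iPSC-derived groups, which did not overlap with primary arrays. The difference was 3.10 (SE 0.36, limma adjusted p = 2.40e-05) in treated and 3.31 (SE 0.36, limma adjusted p = 1.41e-05) in control cells. Col5a2, a type V chain that takes part in starting type I fibrils, had log2 levels of 7.52, 7.80, 7.51, 6.98 and 7.77 on treated arrays 1 to 5, 7.40, 7.85, 7.70, 7.23 and 8.001 on control arrays 1 to 5, 5.93, 6.33 and 5.98 on E14.5 and 5.52, 6.11 and 5.41 on E13.5 arrays. Its groups did not overlap either, with differences of 1.64 (SE 0.24, limma adjusted p = 0.000180) in treated and 1.76 (SE 0.24, limma adjusted p = 0.000100) in control cells. Col5a1, its partner chain, was higher by a smaller amount, 0.54 (SE 0.15, limma adjusted p = 0.0117) in treated and 0.44 (SE 0.15, limma adjusted p = 0.0301) in control cells, with arrays at 6.97 to 7.47 in treated, 6.84 to 7.25 in control and 6.43 to 6.88 in primary cells, so that control and primary arrays overlapped. The Col5a1 calls were lost against either stage alone and with median centring, and that of control cells also without control array 3 (adjusted p = 0.0582) or control array 5 (adjusted p = 0.0510, limma).

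The other 6 fibrillar collagens did not pass. Col2a1, the main collagen of cartilage, which is also known from early neuroepithelium, was at 7.13, 6.78, 6.80, 6.59 and 6.65 on the 5 treated arrays, 6.73, 6.87, 6.87, 6.62 and 6.62 on the 5 control arrays, 6.50, 6.62 and 6.82 on E14.5 arrays and 6.46, 6.76 and 6.57 on E13.5 arrays. The groups overlapped, at 0.17 (95% interval -0.14 to 0.47, limma adjusted p = 0.361) in treated and 0.12 (95% interval -0.19 to 0.43, limma adjusted p = 0.505) in control cells. Col11a1, a cartilage chain that joins type II fibrils, had the largest difference of these, 0.53 in treated (adjusted p = 0.0692) and 0.52 in control cells (adjusted p = 0.0716, limma), and passed in both without treated array 4 (adjusted p = 0.0120 and 0.0303). Its partner Col11a2 was at -0.05 and -0.16, and the third type V chain Col5a3 at 0.10 and 0.20. Col24a1 and Col27a1, fibrillar collagens known from bone and cartilage, were at -0.11 and -0.18, and at 0.02 and -0.03. As a class, 5 of 11 fibrillar collagens were higher and 0 lower in either comparison, with a median difference of 0.53 in treated and 0.44 in control cells.

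Of the 6 type IV collagens, 4 were higher and 0 lower in either comparison, with a median of 1.196 in treated and 1.22 in control cells. The genes of this family lie as head-to-head pairs. Col4a1, a chain of the network found in nearly all basement membranes, measured 9.22, 9.12, 10.24, 10.22 and 9.13 in treated cells, 9.26, 9.22, 10.13, 10.09 and 9.22 in control cells, 6.10, 6.54 and 6.47 at E14.5 and 6.35, 6.80 and 6.91 at E13.5, array by array. Arrays 3 and 4 of both iPSC-derived groups stood above the other arrays of their group, and every iPSC-derived array was above the primary range. The difference was 3.05 (SE 0.38, limma adjusted p = 4.34e-05) in treated and 3.06 (SE 0.38, limma adjusted p = 4.25e-05) in control cells, or 8.30-fold and 8.31-fold. Col4a2, which winds with Col4a1 in the same helix, had log2 levels of 8.28, 8.03, 9.18, 9.12 and 8.16 on treated arrays 1 to 5, 8.25, 8.30, 9.10, 9.06 and 8.22 on control arrays 1 to 5, 6.35, 6.88 and 6.21 on E14.5 and 6.21, 6.25 and 6.60 on E13.5 arrays. The same arrays 3 and 4 were highest. Its differences were 2.13 (SE 0.35, limma adjusted p = 0.000415) in treated and 2.17 (SE 0.35, limma adjusted p = 0.000358) in control cells.

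The second pair lies on the X chromosome. Col4a5, whose human counterpart is mutated in Alport syndrome, a kidney disease, was at 8.07, 7.53, 7.41, 7.21 and 7.70 on the 5 treated arrays, 7.64, 7.68, 7.58, 7.31 and 7.90 on the 5 control arrays, 6.17, 5.97 and 5.91 on E14.5 arrays and 6.42, 5.72 and 6.59 on E13.5 arrays. On this gene arrays 3 and 4 were not the highest: array 4 was the lowest of each iPSC-derived group. It differed by 1.46 (SE 0.20, limma adjusted p = 0.000120) in treated and 1.49 (SE 0.20, limma adjusted p = 9.71e-05) in control cells. Its neighbour Col4a6 measured 7.19, 6.44, 6.40, 6.22 and 6.77 in treated cells, 6.46, 6.55, 6.69, 6.26 and 7.14 in control cells, 5.66, 5.60 and 5.78 at E14.5 and 5.40, 5.72 and 5.83 at E13.5, array by array. The groups did not overlap, and the highest values were on treated array 1 and control array 5. Its primary arrays were also all under the lowest array median. The difference was 0.94 (SE 0.25, limma adjusted p = 0.0109) in treated and 0.95 (SE 0.25, limma adjusted p = 0.00979) in control cells, and the call was lost against either stage alone. The third pair did not pass: Col4a3 was at -0.07 in treated and -0.10 in control cells and Col4a4 at -0.15 and -0.17. Col4a3 had at most 5.66 on any array, under the median of each array. With median centring both passed as lower in both comparisons.

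Among the 27 other collagens, 9 were higher and 1 lower in treated cells and 10 were higher and 1 lower in control cells, with medians of 0.17 in both, which median centring turned to -0.04 and -0.02. The 3 chains that form the beaded filaments of type VI collagen, a product of connective tissue and muscle interstitium, were higher. Col6a1 had log2 levels of 8.69, 8.48, 8.49, 7.83 and 8.997 on treated arrays 1 to 5, 8.34, 8.49, 8.67, 7.97 and 9.33 on control arrays 1 to 5, 5.69, 5.74 and 5.68 on E14.5 and 6.17, 5.82 and 6.59 on E13.5 arrays. Array 5 was highest and array 4 lowest in both iPSC-derived groups, and no array reached the primary range. The difference was 2.55 (SE 0.34, limma adjusted p = 7.25e-05) in treated and 2.61 (SE 0.34, limma adjusted p = 5.86e-05) in control cells. Col6a3, the longest chain of the filament, was at 7.89, 8.10, 8.05, 7.25 and 8.34 on the 5 treated arrays, 7.95, 8.68, 8.24, 7.63 and 8.51 on the 5 control arrays, 5.63, 5.35 and 5.54 on E14.5 arrays and 5.41, 5.55 and 6.25 on E13.5 arrays. These groups did not overlap either, with 2.30 (SE 0.30, limma adjusted p = 5.76e-05) in treated and 2.58 (SE 0.30, limma adjusted p = 2.32e-05) in control cells. Col6a2 had the smallest difference of the 3, 1.96 (SE 0.30, limma adjusted p = 0.000234) and 2.00 (SE 0.30, limma adjusted p = 0.000192). The remaining type VI genes did not pass: Col6a4 was at -0.05 and -0.29, Col6a5 at -0.16 and -0.10, and Col6a6 at -0.05 and 0.11.

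Col12a1, a fibril-associated collagen of tendon, fascia and other dense connective tissue, measured 8.71, 8.49, 8.44, 7.60 and 9.21 in treated cells, 8.42, 8.89, 8.61, 7.81 and 9.50 in control cells, 5.27, 5.03 and 4.73 at E14.5 and 4.87, 5.20 and 4.99 at E13.5, array by array. Its primary arrays were all under the lowest array median, so that the size of its difference is one from dim signal. That difference was 3.47 (SE 0.42, limma adjusted p = 3.40e-05) in treated and 3.63 (SE 0.42, limma adjusted p = 2.34e-05) in control cells, with no overlap. Col8a1, a short-chain collagen of vascular and corneal basement membranes, had log2 levels of 9.38, 9.42, 8.82, 8.45 and 10.22 on treated arrays 1 to 5, 9.32, 9.53, 8.99, 8.55 and 10.27 on control arrays 1 to 5, 6.28, 7.41 and 5.47 on E14.5 and 6.41, 6.40 and 5.51 on E13.5 arrays. Primary arrays scattered widely on this gene, from 5.47 to 7.41, yet stayed under the iPSC-derived arrays. It differed by 3.01 (SE 0.46, limma adjusted p = 0.000213) in treated and 3.08 (SE 0.46, limma adjusted p = 0.000173) in control cells. Col18a1, the basement membrane collagen from which endostatin is cut, was at 7.94, 8.21, 8.21, 7.74 and 8.18 on the 5 treated arrays, 8.08, 7.90, 8.16, 7.87 and 8.20 on the 5 control arrays, 6.37, 6.01 and 6.58 on E14.5 arrays and 6.23, 6.20 and 6.80 on E13.5 arrays. Its spread within groups was small and the groups stood apart, at 1.69 (SE 0.15, limma adjusted p = 2.57e-06) in treated and 1.68 (SE 0.15, limma adjusted p = 2.65e-06) in control cells.

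Smaller differences were found for 5 more. Col9a3, a chain of a cartilage collagen that sits on type II fibrils, was higher by 1.03 in treated (adjusted p = 0.00197, limma) and 0.99 in control cells (adjusted p = 0.00249), while its partners Col9a1 (-0.06 and -0.14) and Col9a2 (-0.12 and -0.17) did not pass. Col14a1, a fibril-associated collagen of skin and tendon, was higher by 0.94 and 0.96 (adjusted p = 0.0235 and 0.0211). Col15a1, a multiplexin near vessels and muscle, was higher by 0.90 in control cells (adjusted p = 0.0201) and at 0.72 in treated cells (adjusted p = 0.0520). Col16a1 was higher by 0.35 in control cells (adjusted p = 0.0404) and at 0.27 in treated cells (adjusted p = 0.0984). Col26a1 was higher by 0.53 in treated cells (adjusted p = 0.0235) and at 0.41 in control cells (adjusted p = 0.0636). A call in only 1 of the comparisons does not show that treated and control cells differ, and the direct comparison given below passed for none of these 3 genes. The calls of Col14a1, Col15a1, Col16a1 and Col26a1 were lost when the cells were set against either stage alone, and those of Col16a1 and Col26a1 also with median centring, as was that of Col14a1 in treated cells. Single arrays decided some of these calls. Col16a1 in control cells did not pass without control array 2, 3 or 5 (adjusted p = 0.0503, 0.0710 and 0.0666) or without treated array 1 or 3, which enter through the shared spread (adjusted p = 0.0513 and 0.0540). Col15a1 in treated cells passed without control array 5 (adjusted p = 0.00727) or treated array 4 (adjusted p = 0.0328). Col26a1 in control cells passed without control array 2 (adjusted p = 0.0460) or treated array 4 (adjusted p = 0.0379).

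Transmembrane collagens did not share this pattern. Col25a1, a membrane collagen of neurons, measured 5.74, 5.49, 5.67, 5.63 and 5.51 in treated cells, 5.41, 5.49, 5.54, 5.61 and 5.75 in control cells, 5.55, 5.98 and 6.25 at E14.5 and 5.68, 6.16 and 6.58 at E13.5, array by array. Primary arrays were spread from 5.55 to 6.58 and overlapped with iPSC-derived arrays. Col25a1 was under the lowest array median on every iPSC-derived array, so that dim signal limits what its difference shows. It was lower, at -0.43 (SE 0.12, limma adjusted p = 0.0111) in treated and -0.47 (SE 0.12, limma adjusted p = 0.00627) in control cells, and the call was lost against E14.5 alone (adjusted p = 0.145 and 0.0982). Col23a1, another membrane collagen, had log2 levels of 6.50, 6.43, 6.70, 6.54 and 7.09 on treated arrays 1 to 5, 6.71, 6.78, 6.61, 6.64 and 7.07 on control arrays 1 to 5, 6.47, 6.34 and 6.57 on E14.5 and 6.55, 6.39 and 6.60 on E13.5 arrays. Arrays 5 were highest, the groups overlapped, and the differences of 0.17 and 0.27 did not pass. Col13a1, which is known from the neuromuscular junction, was at 0.07 and 0.01, and Col17a1, a hemidesmosome protein of epithelia, at -0.01 and -0.04. The other 7 genes also did not pass. Col10a1 of hypertrophic cartilage was at -0.12 in treated and -0.19 in control cells, Col8a2 at 0.32 and 0.22, Col7a1 of the anchoring fibrils of skin at 0.16 and 0.17, and Col28a1 at -0.11 and -0.10. The fibril-associated genes Col19a1 (0.05 and -0.05), Col20a1 (0.18 and 0.16) and Col22a1 (-0.08 and -0.20) completed the family. Under the lowest array median on all 16 arrays were 5 members, Col4a3, Col9a1, Col10a1, Col19a1 and Col28a1, and differences between such values say little about expression.

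The direct comparison of treated with control cells asked whether WNT1 and DKK3 changed these genes. Of the 44 collagens, 0 were higher and 0 lower (limma), as for 0% of all genes in either direction. The smallest adjusted p was 1, and 1 member had an unadjusted p under 0.05, where 1.5% of all genes did. That gene was Col6a4, at 5.58, 5.46, 5.31, 5.54 and 5.20 on treated and 5.16, 5.12, 5.36, 5.05 and 5.20 on control arrays, ranges that overlapped, with a difference of 0.24 (95% interval 0.03 to 0.45). The next smallest unadjusted p-values belonged to Col22a1 (0.13), Col6a6 (-0.16), Col11a2 (0.12) and Col6a3 (-0.28), none of which passed. Medians were 0.04 for fibrillar, -0.01 for type IV and 0.01 for other collagens, against 0.02 over all genes. For the genes with large differences from primary neurons, treated and control means lay close together. Col1a1 averaged 9.88 ± 0.52 in treated and 9.86 ± 0.52 in control cells (SD, n = 5 each), a difference of 0.02 (-0.61 to 0.65). Col4a1 averaged 9.58 ± 0.59 and 9.58 ± 0.48, a difference of -0.0014 (-0.66 to 0.65), and Col3a1 9.48 ± 0.53 and 9.68 ± 0.48, a difference of -0.20 (-0.83 to 0.42). All 44 genes had a 95% interval between -1 and 1 on the log2 scale, and 31 had one between -0.5 and 0.5. Smaller changes could not be resolved for every gene in this fit, and the widest intervals were those of Col8a1 (-0.87 to 0.72) and Col12a1 (-0.89 to 0.57). The fit did not pair arrays of equal number, so spread that such arrays share also widens the intervals. On Col8a1, arrays 4 were at 8.45 in treated and 8.55 in control cells, and arrays 5 at 10.22 and 10.27. With the replicate number as a block, 0 collagens passed as well.

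**Figure D3:**
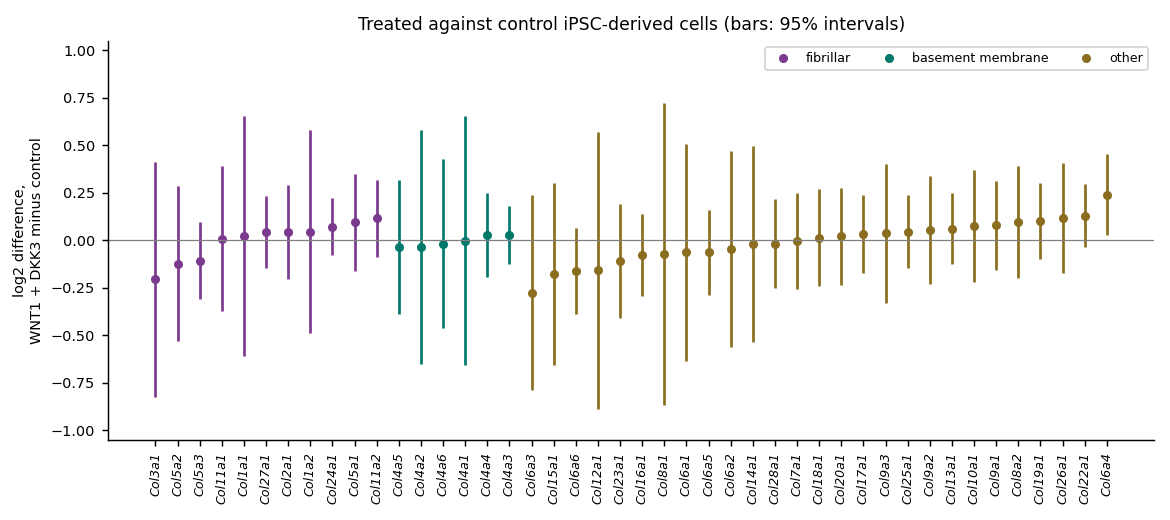
Log2 difference of treated minus control cells (y axis) with 95% intervals from limma (bars) for the 44 collagens (x axis), coloured by class and sorted within it. All 44 intervals lie between -1 and 1, and Col6a4 at 0.24 is the 1 gene whose interval leaves out 0.

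Between the primary stages no collagen met the rule for a difference, which asked for stage means at least 1 apart and arrays that do not overlap (0 of 44, against 0.241% of all genes). This comparison has 1 sample a stage and no test. The differences, E14.5 minus E13.5, ran from -0.49 for Col6a1 to 0.40 for Col5a2, with a median of -0.05 over the 44 and -0.01 over all genes. Col6a1 was at 5.69, 5.74 and 5.68 at E14.5 and at 6.17, 5.82 and 6.59 at E13.5, and Col5a2 at 5.93, 6.33 and 5.98 and 5.52, 6.11 and 5.41. Col6a1 arrays of the stages stood just apart, and those of Col5a2 overlapped. All 6 type VI genes had lower means at E14.5, with differences of -0.49 to -0.10. Of all 44 collagens 28, and of all 19938 genes 10182, had lower means at E14.5. E13.5 array 3 was the highest of its stage for each of Col6a1, Col6a2 and Col6a3. This was not particular to type VI. Over the 19 collagens higher in control cells than in primary neurons, the mean was 6.41 on that array, against 6.13 and 6.17 on E13.5 arrays 1 and 2. Over the other 25 it was 6.19, against 5.93 and 6.07.

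Across the 10 iPSC-derived arrays the higher collagens did not vary as 1 block. Among the 19 collagens higher in control cells than in primary neurons, array 4 was the lowest of the 5 treated arrays for 15 and the lowest of the 5 control arrays for 16, including all 5 fibrillar genes in both groups. Array 5 was the highest for 10 in treated and 14 in control cells. The share of all genes with these extremes is not given here, so they are not called particular to collagens. Col4a1 and Col4a2 ran the other way and were highest on array 3 in both groups, with array 4 next. On Col4a2, arrays 3 and 4 were at 9.18 and 9.12 in treated and 9.10 and 9.06 in control cells, and all other iPSC-derived arrays at 8.30 or less. The mean over the 19 genes was 8.44 on treated array 5 and 8.60 on control array 5, and 7.78 on treated array 4 and 7.89 on control array 4. The arrays with the most Th also had the highest mean of these collagens in either group. Within-group spread was larger for the 19 genes (median SD 0.41 in treated and 0.42 in control cells) than for the other 25 (0.16 and 0.13), and larger than over all genes (0.19 in each). These sets were not matched for level. The 19 were picked as higher in these same control arrays, and 5 of the other 25 were under the lowest array median on all 16 arrays. Spread and signal strength were therefore not told apart.

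Arrays 3 and 4 stood above arrays 1, 2 and 5 in both iPSC-derived groups for 692 of all genes (3.47%) and for 2 of 44 collagens, Col4a1 and Col4a2. They did so for 4 of 15 basement membrane partners (Lama1, Lamb1, Lamc1 and Sparc), while the other 11, among them Nid1, Nid2, Hspg2 and Lama2, did not. Of 8 markers of extraembryonic and gut endoderm, they did so for 5 (Sox17, Sox7, Gata4, Gata6 and Cubn) and not for Foxa1, Afp and Apoa1. These arrays were highest for 2 of 8 endothelial markers (Tek and Flt1) and 2 of 19 genes for modification and folding (P4hb and Creb3l1). For the fibroblast, mural, chondrocyte, dopaminergic and pluripotency lists the count was 0. These counts and the genes given here were chosen after the values were seen. Lama1, the laminin alpha-1 chain, was at 7.58, 8.09, 10.01, 10.05 and 8.22 on treated arrays 1 to 5 and at 7.83, 8.31, 9.93, 9.93 and 8.26 on control arrays 1 to 5. Gata4, an endoderm and heart transcription factor, was at 6.26, 6.60, 8.20, 8.22 and 6.14 and at 6.18, 6.50, 7.89, 8.26 and 6.31. On both genes arrays 3 and 4 stood above all other iPSC-derived arrays, as they did for Lamb1, Lamc1, Gata6, Sox17 and Sox7. The mean over the 8 endoderm markers was 6.82 and 6.93 on treated arrays 3 and 4 and 6.67 and 6.88 on control arrays 3 and 4, against 5.91 to 6.03 on the other treated and 5.98 to 6.09 on the other control arrays. Primary arrays had 6.11 to 6.44. Foxa1, which dopaminergic neurons also express, was at 6.54 to 7.37 on treated, 6.52 to 7.11 on control and 9.67 to 10.56 on primary arrays. As a list, 0 of these 8 markers were higher and 1, Foxa1, was lower in either comparison with primary neurons. The part of endoderm-like or endothelial cells in the Col4a1 and Col4a2 values was not tested.

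**Figure D4:**
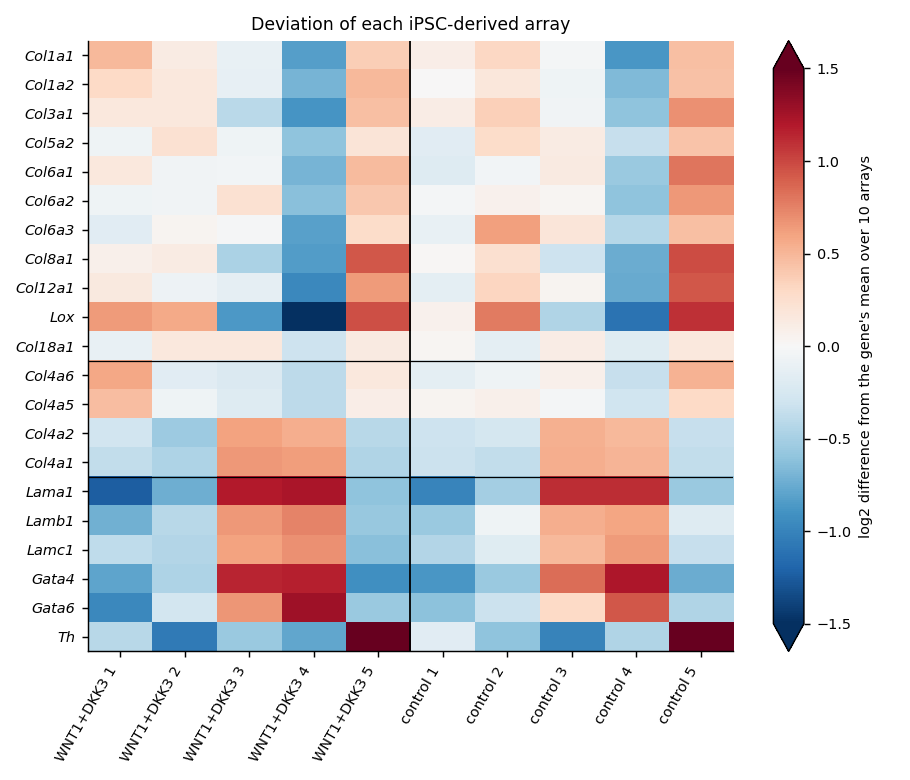
Deviation of each gene (rows) from its own mean over the 10 iPSC-derived arrays (columns, treated left and control right), on the log2 scale, red above and blue below the mean; colours are cut off at 1.5. Rows are interstitial collagens, Lox and Col18a1 (top), type IV collagens (middle), and laminin genes, Gata4, Gata6 and Th (bottom): Col4a1 and Col4a2 are red on arrays 3 and 4, where Col1a1, Col3a1 and Col12a1 are mostly blue.

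Genes for the enzymes and chaperones that make collagen were also higher in iPSC-derived cells. Of 19 measured genes for modification and folding in the endoplasmic reticulum, 16 were higher and 0 lower in either comparison, with a median of 1.91 in treated and 1.96 in control cells. The shares over all genes, for this list and those that follow, were 19.9% higher and 21.3% lower in treated cells. In control cells they were 19.3% and 22.5%. Serpinh1, the collagen-specific chaperone HSP47, was at 9.52, 9.80, 9.71, 9.81 and 9.79 on treated, 9.43, 9.77, 9.69, 9.77 and 9.58 on control, 7.29, 6.48 and 7.05 on E14.5 and 6.64, 6.85 and 7.14 on E13.5 arrays. Its 10 iPSC-derived arrays differed little among themselves and stood far above primary arrays, by 2.82 (SE 0.12, limma adjusted p = 1.17e-08) in treated and 2.74 (SE 0.12, limma adjusted p = 1.36e-08) in control cells. P4ha2, a prolyl 4-hydroxylase subunit that stabilises the helix, was higher by 3.51 and 3.39, Crtap, part of the prolyl 3-hydroxylase complex, by 3.00 and 3.23, and Plod2, a lysyl hydroxylase, by 2.91 and 2.90, each in treated and control cells in turn. Creb3l1, a transcription factor of secretory cells that acts on Col1a1 in mouse bone, was higher by 3.35 and 3.43.

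Of 13 measured genes for propeptide cleavage and cross-linking, 6 were higher and 2 lower in either comparison. Lox, the lysyl oxidase that cross-links fibrils, was at 9.92, 9.84, 8.42, 7.57 and 10.25 on treated, 9.35, 10.06, 8.83, 8.17 and 10.37 on control, 4.91, 4.16 and 5.08 on E14.5 and 5.52, 4.08 and 5.30 on E13.5 arrays. As with Col1a1, array 4 was the lowest of each iPSC-derived group. The difference was 4.36 (SE 0.71, limma adjusted p = 0.000363) in treated and 4.51 (SE 0.71, limma adjusted p = 0.000271) in control cells. Pcolce, which speeds removal of the C-terminal propeptide, was higher by 3.98 and 4.12, Loxl1 by 2.14 and 2.17 and the protease gene Furin by 1.40 and 1.501. Of genes chosen after their values were seen, Bmp1, the protease that performs that cut, did not pass (0.30 and 0.37), while its relatives Tll1 and Tll2 were lower (-0.73 and -0.81, and -0.54 and -0.56). Pxdn, the peroxidase that cross-links type IV collagen, did not pass (-0.21 and -0.07).

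Among 10 measured collagen receptors, 6 were higher and 1 lower in treated and 5 were higher and 1 lower in control cells. Mrc2, an endocytic receptor for collagen, was higher by 2.66 and 2.74, Itga1, an integrin chain for collagen, by 1.69 and 2.06, and its partner Itgb1 by 1.76 and 1.67. The receptor kinases Ddr2 (1.84 and 2.06) and Ddr1 (0.96 and 0.82) were also higher. Adgrg1, the adhesion receptor GPR56, for which Col3a1 is the ligand in developing mouse brain, was at 8.66, 8.03, 8.72, 8.47 and 7.30 on treated, 7.85, 8.27, 8.39, 8.57 and 7.53 on control, 9.94, 9.81 and 9.42 on E14.5 and 9.95, 9.92 and 9.01 on E13.5 arrays. It was the 1 receptor that was lower, at -1.44 (SE 0.36, limma adjusted p = 0.00671) in treated and -1.55 (SE 0.36, limma adjusted p = 0.00416) in control cells, while Col3a1 was higher.

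Of 10 genes for collagen breakdown and its inhibitors, 7 were higher and 1 lower in either comparison. The gelatinase gene Mmp2 was higher by 4.12 and 4.16, the inhibitor genes Timp3 by 3.63 and 3.53 and Timp1 by 3.64 and 3.41, and Ctsk, which encodes cathepsin K, by 3.33 and 3.47. Mmp8 was lower (-0.27 and -0.35), and the collagenase Mmp13 did not pass (-0.32 and -0.26). Of 15 measured partners of type IV collagen in basement membranes, 12 were higher and 1 lower. Nid2 (4.49 and 4.62) and Nid1 (4.39 and 4.58), the nidogens that link laminin to type IV collagen, Sparc (4.24 and 4.18), which binds collagen, and Lamb1 (4.04 and 4.16) had the largest differences. Agrn, a proteoglycan that neurons also make, was the 1 lower gene, at -0.56 (SE 0.14, limma adjusted p = 0.00690) in treated and -0.72 (SE 0.14, limma adjusted p = 0.00130) in control cells. In treated against control cells, 0 genes of these 5 lists passed. On primary arrays Lox, P4ha2, Itga1, Ddr2 and Ctsk were under the lowest array median throughout, so that their differences are from dim signal and not exact sizes. Mmp8 was under it on every array, at 3.98 to 4.22 on iPSC-derived and 4.23 to 4.56 on primary arrays. Its lower call thus says little about expression.

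**Figure D5:**
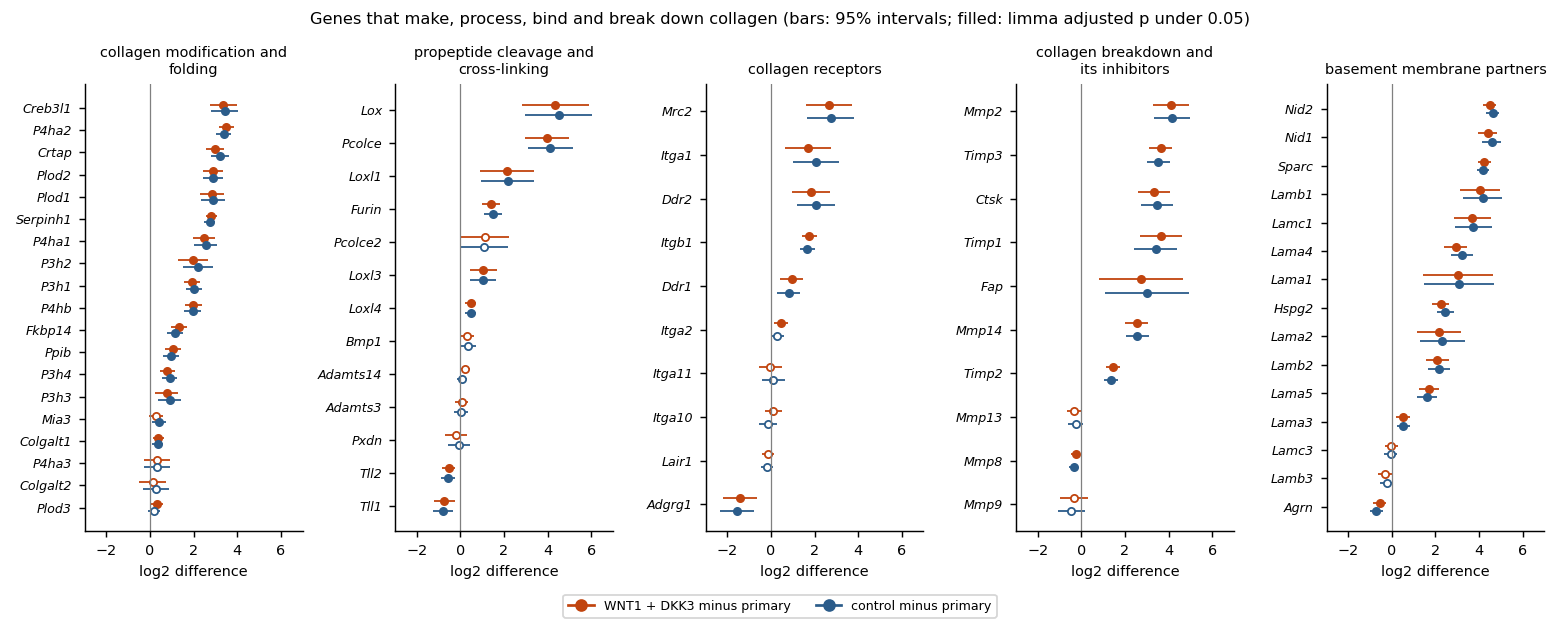
Log2 difference from primary neurons (x axis, with 95% interval) for each gene (y axis) of 5 lists, in treated (red) and control (blue) iPSC-derived cells; filled points passed limma's adjusted threshold of 0.05. Lox, Pcolce, Mmp2, Nid1, Nid2, Sparc and Lamb1 lie at about 4 or above, and Adgrg1, Agrn, Tll1, Tll2 and Mmp8 are the genes below 0 that passed.

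Marker lists of other cell types were counted beside these results, where 19.9% of all genes were higher and 21.3% lower in treated cells and 19.3% and 22.5% in control cells. Of 11 fibroblast and mesenchyme markers, which include Col1a1, 10 were higher and 0 lower in either comparison, and their mean level was 8.23 to 9.15 on treated, 8.40 to 9.16 on control and 5.55 to 5.85 on primary arrays. Dcn (decorin) was higher by 5.48 and 5.68, Postn (periostin) by 4.96 and 5.16, Lum (lumican) by 4.75 and 5.09 and the mesenchymal factor gene Prrx1 by 3.71 and 3.82. Postn, Lum and Prrx1 were under the lowest array median on all primary arrays, and Lum, at 3.86 to 4.07, was under the lower quartile of every array (4.32 or more), so that these are differences from dim signal and not exact sizes. Of 8 endothelial markers 3 were higher and 1 lower in either comparison (mean level 6.56 to 7.05 on treated, 6.59 to 6.95 on control and 5.29 to 5.79 on primary arrays). These were Cdh5 at 3.11 and 3.27, Flt1 at 2.23 and 2.26 and Kdr at 1.82 and 1.75, and Cldn5 at -0.43 and -0.47. Cldn5 was under the lowest array median on every iPSC-derived array (5.17 to 5.48). Its primary arrays (5.21 to 6.30) overlapped with these, so that dim signal limits what its difference shows. Of 8 mural cell markers 3 were higher and 1 lower (mean level 6.01 to 6.30 on treated, 6.02 to 6.30 on control and 5.50 to 5.91 on primary arrays), with list medians of -0.01 and -0.06. They were Acta2 at 3.66 and 3.61, Pdgfrb at 1.28 and 1.57 and Notch3 at 0.66 and 0.66, and the pericyte gene Rgs5 at -1.04 and -1.12. Acta2 and Pdgfrb were also under the lowest array median on all primary arrays, so that their differences are from dim signal. Of 8 chondrocyte markers, 1, Sox9, which many cell types express, was higher (2.60 and 2.65) and 0 lower, with list medians of -0.06 and -0.03 (mean level 5.23 to 5.41 on treated, 5.20 to 5.37 on control and 4.92 to 5.07 on primary arrays), while Acan, the aggrecan gene that defines cartilage, did not pass (-0.17 and -0.22). Of 6 pluripotency markers 1, Sox2, was higher (1.91 and 1.86), and 5 were without the arrays numbered 5 (mean level 5.76 to 8.78 on treated, 5.84 to 8.34 on control and 5.41 to 5.95 on primary arrays). All 8 dopaminergic markers were lower, among them Th at -4.87 and -4.90, Slc18a2 at -4.66 and -4.70, Nr4a2 at -4.24 and -4.31 and Ddc at -4.01 and -4.02. The part of any of these cell types in the collagen levels was not tested.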

How the data were processed

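The values were deposited by the authors as log2 expression of 35556 probe sets on 16 arrays. Per the submitters' processing notes, RMA and Affymetrix Expression Console 1.2 were used, and whether all arrays were normalized in 1 run is not given in the sources used here. The RNA was amplified by the Ovation PicoSL WTA System V2, per the labels' protocols, which can add spread between arrays. After quantile normalization, which is part of RMA, levels are relative, so a change in total RNA per cell is not seen. No detection calls were used, and dim probe sets were left out only by level, as an alternative.

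Gene names came from the platform annotation, in which 21789 probe sets have 1 symbol, 1621 several, and the remaining 12146 are not listed. Symbols were brought up to date by Entrez ID with RefSeq names of the assembly GRCm38.p6 for 21698 probe sets. The probe set with the highest mean stood for each of 19938 genes, of which 999 had several probe sets (among collagens, Col6a5 and Col6a6). Promoter windows were RefSeq's of the same assembly.

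Tests were run over all genes with limma 3.58.1 under R 4.3.3 (lmFit, eBayes), and calls were made at 0.05 after Benjamini-Hochberg adjustment. The fit of treated and control cells held 10 arrays. The fit with primary neurons held 12 samples in 3 groups, with the 3 technical arrays of a stage averaged to 1 sample. The code was checked on simulated data. Alternatives covered the filter on dim genes, the choice of probe set, median centring, moderation, each array left out, a replicate block, each stage alone and technical arrays kept apart.

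The members and lists were chosen with earlier results of these data known. Genes outside the family were named where, among those past the threshold, they had the 4 largest differences of control cells from primary neurons in their list, with Serpinh1, Lox, Ddr1, Ddr2, Adgrg1 and Sparc named always. Others (Lama1, Lama2, Lamc1, Hspg2, Gata4, Gata6, Sox17, Sox7, Cubn, Tek, P4hb, Afp, Apoa1, Bmp1, Tll1, Tll2, Pxdn, Mmp8, Mmp13, Agrn and Acan) were named after their values were seen.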

Additional observations from a re-analysis of the deposited data

Results flagged for a closer look

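In groups of 5 arrays, 1 array stood far from the other 4 for 8 of the 88 gene and group combinations examined, by the ratio of its gap to the range of the group, where chance gives about 1 in 20. On treated array 5, the log2 level of Col5a3 was 6.397, against 6.116 to 6.186 on the other treated arrays, that of Col24a1 was 5.893 (others 5.754 to 5.781), and that of Col8a2 was 6.131 (others 5.772 to 5.826). On treated array 2, Col10a1 was at 4.871 (others 5.336 to 5.504). Control array 5 had Col15a1 at 7.758, against 6.715 to 6.892 on the other control arrays. Control array 2 was low for Col4a3 at 5.246 (others 5.328 to 5.355), for Col4a4 at 5.394 (others 5.530 to 5.572) and for Col11a2 at 6.302 (others 6.555 to 6.658). Of these 8, Col15a1 was the 1 gene that differed from primary neurons in control cells, and without control array 5 its call was kept there.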

How the results depend on the processing

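Of the collagen calls against primary neurons, 14 of 19 in treated and 14 of 20 in control cells were kept in all 18 alternatives, and 0 collagens passed in treated against control cells in any of 16. Leaving out 1 treated or control array at a time gave 18 to 20 collagens higher in treated and 17 to 21 in control cells, with 1 lower throughout. Without both arrays 5, some list counts of higher genes moved. In control cells, cleavage and cross-linking had 8 in place of 6 and collagen receptors 6 in place of 5. In treated cells, cleavage and cross-linking had 7 in place of 6 and modification and folding 15 in place of 16. Endothelial markers had 4 in place of 3 in both. Against E14.5 alone, 0 collagens were lower in treated and 0 in control cells, and over all genes 2622 were lower in treated and 2743 in control cells, in place of 4241 and 4491. Against E13.5 alone these were 2722 and 2847. With median centring, 6 collagens and 8787 genes were lower in treated and 7 collagens and 8833 genes in control cells. With the technical arrays kept apart and the stage as a random block, 2 collagens were lower in control cells. Median centring shifts every difference, and a single stage leaves 1 primary sample, but the cause of these moves was not tested. Between stages, a difference of at least 0.5 in place of 1 gave 526 genes in place of 48, and leaving out 1 technical array gave 80 to 105. The replicate number as a block in treated against control cells gave 1 gene higher in place of 0, and 0 collagens. The deviations of equally numbered treated and control arrays correlated at 0.045, 0.52, 0.435, 0.718 and 0.798 for numbers 1 to 5 across genes. Because number 1 was under 0.1 and the labels name nothing shared, the numbers were not taken to pair the samples, although 7 of 10 arrays correlated best with the array of their own number, a hint from the data that some do. With 2 primary samples, small differences from primary neurons could not be resolved. For 5 members below every array median, dim signal limits what any difference shows. The same holds for Col12a1 and Col4a6 on primary arrays and for Col25a1 on iPSC-derived arrays.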

Other observations

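Several collagen genes lie next to each other in the RefSeq annotation, and differences from primary neurons were given for each such pair in control cells. Where both neighbours passed, they passed in the same direction: Col3a1 at 3.31 and Col5a2 at 1.76 on chromosome 1, Col6a2 at 2.00 and Col6a1 at 2.61 on chromosome 10, Col4a1 at 3.06 and Col4a2 at 2.17 on chromosome 8, and Col4a6 at 0.95 and Col4a5 at 1.49 on chromosome X. In the other neighbouring pairs neither gene passed, with Col4a4 at -0.17 and Col4a3 at -0.10 and with Col9a1 at -0.14 and Col19a1 at -0.05 on chromosome 1, and Col6a6 at 0.11, Col6a5 at -0.10 and Col6a4 at -0.29 on chromosome 9. Among these 8 neighbouring pairs, 0 held 1 gene that passed and 1 that did not. Neighbours of other families were not examined, so nothing is called particular to collagens here.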
